A study of Mus musculus with 6 samples.

Results

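The 50 genes described here encode the proteins with which a dividing cell condenses, attaches and separates its chromosomes: the cyclin-dependent kinase switch, the mitotic kinases, the spindle checkpoint, the kinetochore, the spindle motors, the cytokinesis machinery and condensin. They were chosen by name for these roles, with earlier results of these data known, and are 50 of the 36083 genes in the deposited table. All 50 passed the filter on low values, a mean across the 6 libraries of 1 or more, which 12155 genes met.

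The libraries were made from mouse blast crisis chronic myeloid leukemia (bcCML), in which KLS cells, an immature blood cell fraction, of B6 donors carried the oncogenes BCR-ABL and NUP98-HOXA9. Both groups shared these oncogenes: 3 libraries came from leukemia of WT donor cells and 3 from leukemia of Sdc1-/- donor cells, in which the gene of the cell surface proteoglycan syndecan-1 was disrupted. In both, doubly infected cells were sorted and transplanted into NSG recipients, the 2 cohorts were killed at the same time, and lineage-negative (Lin-) bcCML cells were sorted from the spleen, so that an RNA value is a mean over whatever passed that sort. The Sdc1-/- allele alters the part of the gene that encodes the signal peptide, which keeps the protein from the cell surface, and both groups model the disease with introduced oncogenes. The labels give no age for the animals and do not say whether the 3 libraries of a group came from separate mice. The study's supplement calls the WT libraries technical replicates, so every SD and p-value here measures only the spread between libraries, which may be technical. RNA (150 ng per library) was made into stranded poly(A) libraries and read as single 75-base reads.

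Sdc1 itself (ENSMUSG00000020592) was at 1.75, 1.21 and 1.51 in the WT libraries and 3.85, 3.80 and 4.12 in the Sdc1-/- libraries (numbers 1, 2 and 3 of each label, in that order here and throughout). It was therefore higher in every library labelled Sdc1-/- (log2 fold change 0.99 ± 0.093 SE, limma adjusted p = 0.00012). The value covers the whole gene and does not separate the altered part from the rest, so it does not check the labels, and the groups are called by their labels throughout. Values are TPM, the share of all transcripts after division by transcript length, which the authors rescaled between libraries, so that levels of different genes can be set side by side. The 6 libraries sum to between 944973 and 1058263, the libraries labelled WT above those labelled Sdc1-/-, and the number of reads behind a value is unknown. On the log2 scale the libraries correlated at 0.993 to 0.996 within a label and at 0.968 to 0.972 between labels, across the genes tested. Markers of other cell types moved with the label. All 8 mature neutrophil markers, 8 of 9 monocyte and macrophage markers and all 6 mast cell and basophil markers were lower in the libraries labelled Sdc1-/-, and the summed value of the neutrophil markers was 12650 to 13598 in the WT libraries against 4587 to 4730. The erythroid list gave 7 lower and 2 higher of 10, and the megakaryocyte list 4 lower and 1 (Pf4) higher of the 5 tested. Of the stroma and endothelium markers 2 were tested. Col1a2 was higher, with a mean of 18.8 in the WT and 23.2 in the Sdc1-/- libraries, and Pecam1 was lower. Among all genes tested 31.3% were lower and 29.3% higher at the same limma adjusted p under 0.05. Of the B cell markers, Ms4a1, Pax5, Ebf1 and Cd79a reached at most 0.0952 in any library, whereas Cd79b stood at 1.80 to 2.67 and overlapped between the labels. Of the 7 T and NK cell markers, Cd3e reached at most 0.0382 and Cd8a 0.0409, Cd3d stood at 0.225 to 0.872, and Klrb1c stood at 6.22 to 7.24, lower in each Sdc1-/- library than in any WT library without passing the test (limma adjusted p = 0.070). The part of these cell markers in the results for the mitotic genes was not tested, and in bulk RNA fewer cells of a type and less RNA per cell cannot be told apart.

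Entry into mitosis is driven by Cdk1 bound to B-type cyclins, after Cdc25 phosphatases have removed its inhibitory phosphates. Chromosomes that condensin and topoisomerase II have compacted are captured by spindle microtubules at kinetochores, and the spindle checkpoint holds the anaphase-promoting complex (APC/C) inactive until every kinetochore is attached. The APC/C with Cdc20 then marks securin and cyclin B for destruction, which frees separase to cut cohesin, and a central spindle and contractile ring divide the cell. Most of these genes are transcribed in G2 and M phase, through promoters that often pair CCAAT boxes, which bind NF-Y, with a cell cycle genes homology region (CHR), which binds the MuvB complexes and, through them, B-Myb and Foxm1. In a myeloid tissue such transcripts come from cycling progenitors, and terminally differentiated neutrophils hold few of them.

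Promoter sequence was at hand for 41 of the 50 members, as 44 RefSeq windows (build GRCm38.p6) that run from 250 bases before to 50 after an annotated start. The 150-base stretches below show what these promoters look like in members on which the results turn: Mki67, Top2a, Espl1 and Ube2c, which were higher in the libraries labelled Sdc1-/-, Cdk1 and Cdc20 from the center of the mitotic switch, and Ccnb1, 1 of the 3 members called lower. They were picked after the values were seen. Capitals mark a CHR core (TTTGAA or TTCGAA) or a CCAAT box, read on either strand, so that TTCAAA and ATTGG are the same motifs in the other orientation. Each line reads 5′ to 3′ on the strand of the gene and ends at the base before the RefSeq start, except that those of Ube2c and Ccnb1 end 1 and 54 bases earlier, so that at most 30 bases lie in a transcript that GENCODE starts farther upstream.
Mki67, chr7:135716380-135716529, minus strand: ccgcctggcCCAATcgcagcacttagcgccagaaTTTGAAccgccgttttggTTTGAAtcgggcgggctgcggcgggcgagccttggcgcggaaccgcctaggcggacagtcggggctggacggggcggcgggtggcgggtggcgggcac
Top2a, chr11:99024190-99024339, minus strand: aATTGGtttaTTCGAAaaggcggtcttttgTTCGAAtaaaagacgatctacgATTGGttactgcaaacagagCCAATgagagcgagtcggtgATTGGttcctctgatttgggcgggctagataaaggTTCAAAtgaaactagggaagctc
Espl1, chr15:102296143-102296292, plus strand: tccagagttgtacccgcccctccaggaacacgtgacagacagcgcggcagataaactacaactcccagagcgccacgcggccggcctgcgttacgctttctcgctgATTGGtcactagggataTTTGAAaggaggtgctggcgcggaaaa
Ube2c, chr2:164769778-164769927, plus strand: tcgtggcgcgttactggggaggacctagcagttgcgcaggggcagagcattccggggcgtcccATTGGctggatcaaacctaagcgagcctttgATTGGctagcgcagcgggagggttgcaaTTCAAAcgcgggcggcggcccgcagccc
Cdk1, chr10:69352913-69353062, minus strand: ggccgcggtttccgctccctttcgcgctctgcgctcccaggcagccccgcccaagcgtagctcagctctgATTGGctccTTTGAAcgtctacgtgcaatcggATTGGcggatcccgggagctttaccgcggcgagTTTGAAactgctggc
Cdc20, chr4:118437344-118437493, minus strand: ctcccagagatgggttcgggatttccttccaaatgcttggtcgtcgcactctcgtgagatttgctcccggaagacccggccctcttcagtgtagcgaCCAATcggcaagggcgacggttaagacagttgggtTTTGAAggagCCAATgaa
Ccnb1, chr13:100786541-100786690, minus strand: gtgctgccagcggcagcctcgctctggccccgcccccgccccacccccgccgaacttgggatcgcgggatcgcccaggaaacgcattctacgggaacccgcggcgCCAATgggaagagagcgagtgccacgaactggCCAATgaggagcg

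The stretch of Top2a held 3 CHR cores and 4 CCAAT boxes, those of Mki67 and Cdk1 held 2 CHR cores each, and that of Ccnb1 held 2 CCAAT boxes and no CHR core. Over the full windows, 36 of the 44 of the members held a CHR core (81.8%), against 19.2% of all 32851 RefSeq windows of this length. A CCAAT box was in 33 of the 44 (75%) against 37.4% of all windows, and both motifs were in 31 (70.5%) against 7.53%. In 1 place in the 44 windows a CHR core and a CCAAT box shared bases. The 8 members with a window but no CHR core in it were Birc5, Ccnb1, Cenpe, Mad2l1, Ncaph, Nuf2, Nusap1 and Pttg1. A match is a run of letters and not a measured site, and a window without one says only that these letters are not in it.

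**Figure D1:**
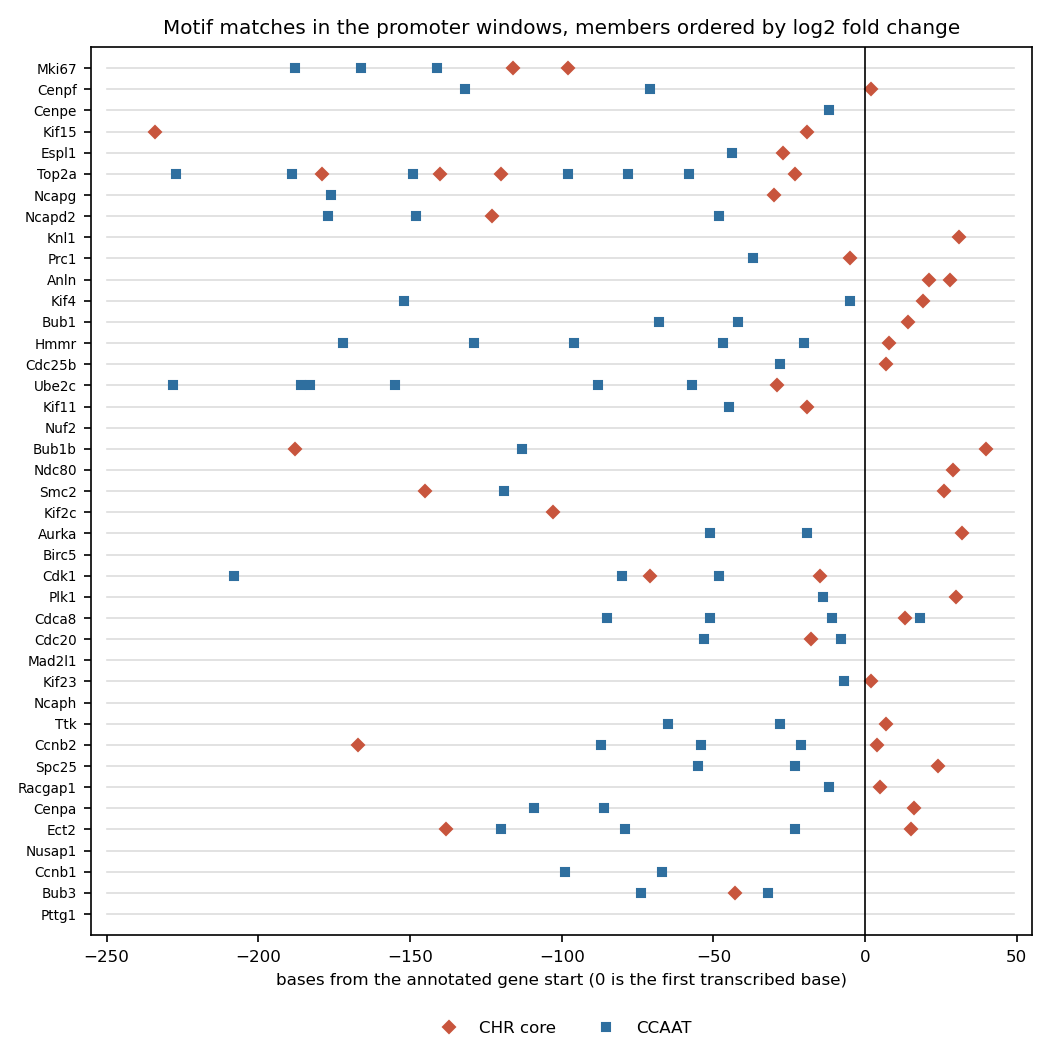
Positions of CHR cores (diamonds) and CCAAT boxes (squares) in the RefSeq promoter window of 41 members, in bases from the annotated start (x axis, 0 is the first transcribed base), with genes ordered from the highest log2 fold change at the top to the lowest. Where a gene has more than 1 window, the first is drawn; the CHR core of most genes lies close to the start, and genes with and without it occur at both ends of the order.

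Most of the mitotic genes were higher in the libraries labelled Sdc1-/-. By limma with Benjamini-Hochberg adjustment over all genes tested (adjusted p under 0.05), 37 of the 50 were higher, 3 were lower and 10 did not pass, where 29.3% of all genes tested were higher and 31.3% were lower. The 3 libraries labelled Sdc1-/- lay above all 3 WT libraries for 39 members and below them for 5 (32.6% and 34.2% of all genes tested), and the labels overlapped for 6. The median log2 fold change of log2(value + 1) was 0.30 over the members, with a range of -0.14 to 1.49, and -0.0097 over all genes tested. At an unadjusted p under 0.05 the same 3 members were lower and 38 were higher, so that a role group without a lower member has none at that level either. The members at least 2-fold higher on that scale, where 1.91% of all genes tested were, numbered 5: Mki67, Cenpf, Cenpe, Kif15 and Espl1.

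Added up, the 50 members stood at 2421, 2413 and 2362 in the WT libraries, which was 0.229%, 0.230% and 0.225% of all TPM in them. In the Sdc1-/- libraries they stood at 2920, 2957 and 2922, or 0.307%, 0.311% and 0.309%. The 2 ranges lie apart in both units. The level of single members ran over a wide scale, from Cenpe at 5.02 ± 0.12 (SD, n = 3) to Cenpa at 182 ± 6.18 in the WT libraries. Top2a had the highest mean in the Sdc1-/- libraries (189 ± 2.78) and the eighth highest in the WT libraries, and Mki67 moved from place 34 to place 17 of 50.

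How the values are scaled sets the count of lower members. When each library was set to a sum of 1000000, the median of all genes moved from -0.0097 to 0.12, calls over all genes became 43.5% higher and 19.6% lower, and limma called 43 members higher and none lower (45 and 0 at an unadjusted p under 0.05). The limma adjusted p of Ccnb1, Bub3 and Pttg1, the 3 members lower on the deposited values, was then 0.67, 0.86 and 0.96. The members' median less that of all genes was 0.31 on the deposited values and 0.32 on that scale, and 44 of 50 members lay above the median of all genes on both. Statements on single members are therefore given on the deposited scale, and where the sum of 1000000 turns a direction or a call, it is named. The 6 members that were called higher on that scale and not on the deposited one were Ccna2, Ccnb2, Cdc25c, Ttk, Kif20a and Racgap1.

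**Figure D2:**
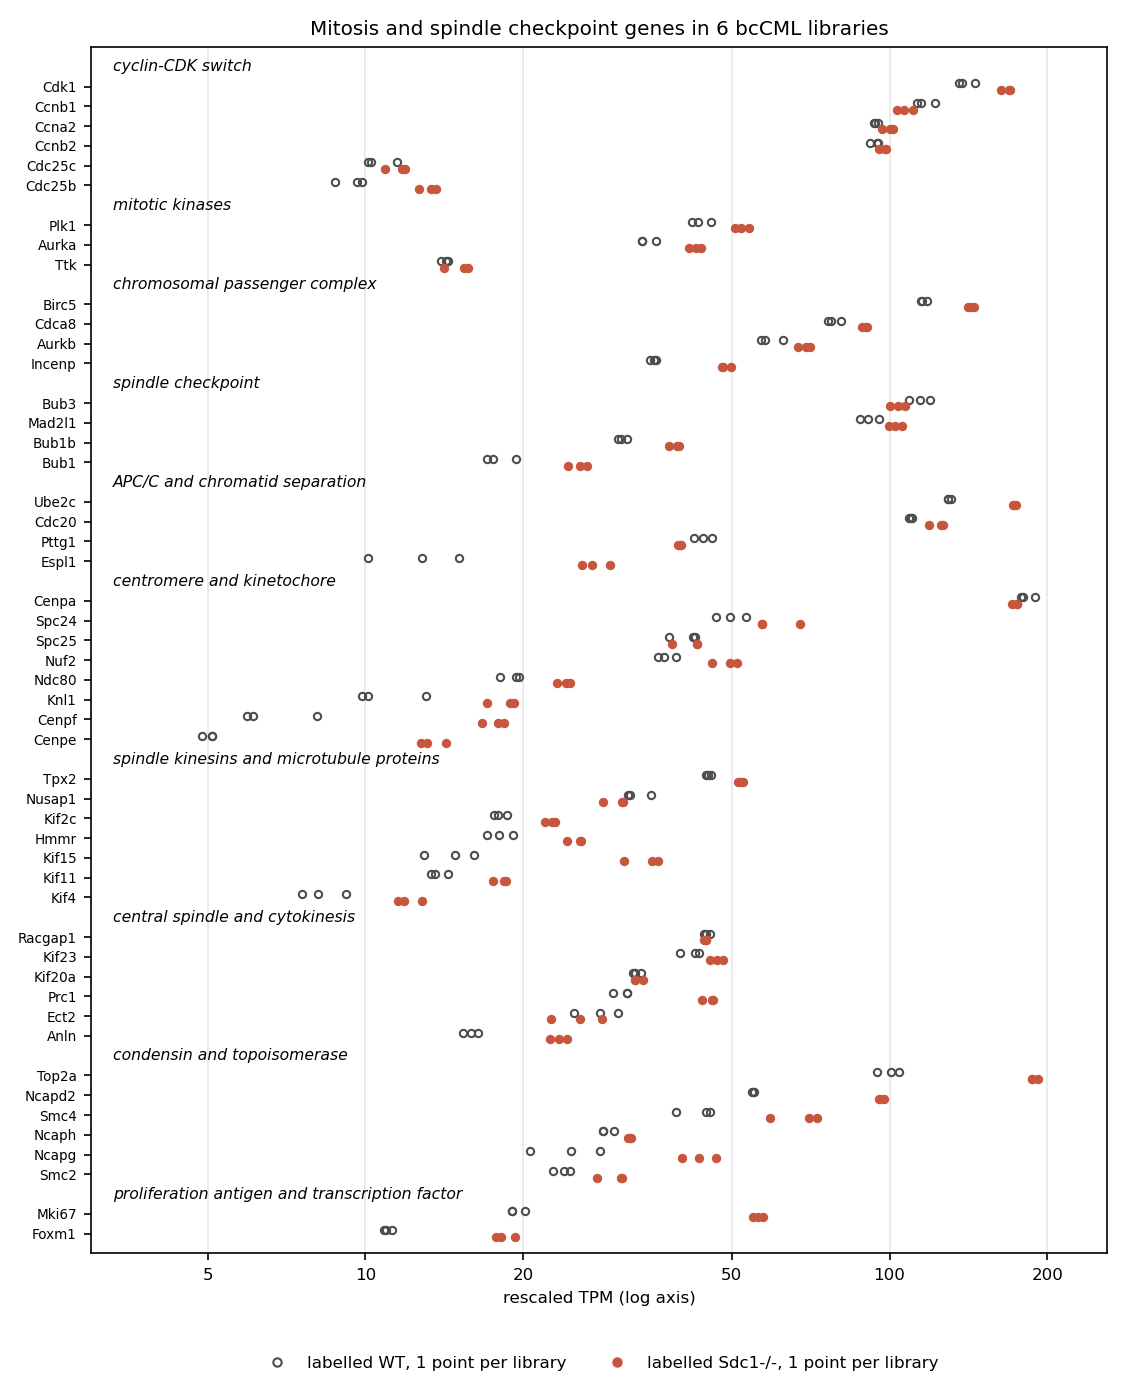
Level of each of the 50 members in each library, as TPM rescaled by the authors on a log axis, with 1 open point for each library labelled WT and 1 filled point for each labelled Sdc1-/-, grouped by role. The filled points lie to the right of the open points for 39 members, widest for Mki67, Cenpe, Cenpf, Kif15 and Espl1, and to the left for 5.

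In the cyclin-CDK switch 2 of 6 members were higher (33.3%), near the 29.3% of all genes tested, 1 was lower and the median log2 fold change was 0.094. These counts depended on the scale: 5 were higher and none lower with each library set to a sum of 1000000, where 43.5% of all genes were higher. By quantile normalization 4 were higher and none lower, where 31.1% of all genes were higher. Removal of a trend with transcript length or coding length gave 5 and 0 or 4 and 0, where 30.7% or 34.3% of all genes were higher. Cdk1, the kinase that drives cells into mitosis, was at 146, 138 and 136 in the WT libraries and 169, 170.0 and 163 in the Sdc1-/- libraries. All 3 Sdc1-/- libraries lay above the WT libraries, by 1.20-fold of the means (log2 fold change 0.26 ± 0.037 SE, limma adjusted p = 0.00081). Cdc25b, a phosphatase that activates Cdk1, was the member of this group with the largest rise: it was at 9.64, 8.75 and 9.84 in the WT libraries and 13.6, 13.4 and 12.7 in the Sdc1-/- libraries, without overlap (log2 fold change 0.45 ± 0.056 SE, limma adjusted p = 0.00045). The cyclins that bind Cdk1 gave smaller differences on the deposited scale. Ccnb1 (cyclin B1, ENSMUSG00000041431, chr13:100778650-100786570) was at 122, 115 and 113 in the WT libraries and 111, 106 and 103 in the Sdc1-/- libraries, every Sdc1-/- library below every WT library. It was called lower (log2 fold change -0.13 ± 0.043 SE, limma adjusted p = 0.039), but its log2 fold change was 0.021 with each library set to a sum of 1000000, and 46.9% of the 31-base words of its transcript also occur in transcripts of other genes, among them the pseudogene Ccnb1-ps, so its value is uncertain. Ccnb1 also did not pass when WT replicate 1, WT replicate 2, Sdc1-/- replicate 2 or Sdc1-/- replicate 3 was left out (limma adjusted p = 0.11, 0.061, 0.10 and 0.12). Ccnb2 (cyclin B2) was at 95.1, 94.7 and 91.8 in the WT libraries and 97.9, 95.6 and 98.4 in the Sdc1-/- libraries, the Sdc1-/- libraries above the WT libraries by a narrow margin (log2 fold change 0.051 ± 0.030 SE, limma adjusted p = 0.18). Ccna2 (cyclin A2), which acts from S phase into early mitosis, was at 93.7, 94.99 and 93.3 in the WT libraries and 96.8, 100.2 and 102 in the Sdc1-/- libraries (log2 fold change 0.081 ± 0.030 SE, limma adjusted p = 0.054). Its values did not overlap either, but neither cyclin passed the test on the deposited values. With a sum of 1000000 per library both were called higher, Ccnb2 by 0.20 and Ccna2 by 0.23 on the log2 scale (limma adjusted p = 0.00091 and 0.00064). Both were also called higher by quantile normalization (limma adjusted p = 0.0078 and 0.0062) and with the transcript length trend (0.0031 and 0.012) or the coding length trend (0.0085 and 0.0015) removed. Ccna2 passed as well without Sdc1-/- replicate 1 and without a minimum mean (limma adjusted p = 0.035 and 0.048). Cdc25c, the other phosphatase, overlapped between the labels, with 10.1 to 11.5 in the WT and 10.9 to 11.9 in the Sdc1-/- libraries, and was called higher with the sum of 1000000 and with the transcript length trend removed (limma adjusted p = 0.011 and 0.047).

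Of the mitotic kinases outside the switch, 2 of 3 were higher (66.7%, against 29.3% of all genes tested). Plk1, which matures centrosomes and acts from mitotic entry to cytokinesis, was at 45.5, 41.9 and 43.1 in the WT libraries and 53.9, 50.7 and 52.1 in the Sdc1-/- libraries. It was 1.20-fold higher without overlap (log2 fold change 0.26 ± 0.042 SE, limma adjusted p = 0.0017), with 15.2% of its words shared with the pseudogene Plk-ps1. Aurka (Aurora A), the centrosomal kinase, was at 35.9, 33.7 and 33.8 in the WT libraries and 42.8, 43.7 and 41.4 in the Sdc1-/- libraries. Again all Sdc1-/- libraries were above all WT libraries (log2 fold change 0.30 ± 0.040 SE, limma adjusted p = 0.00064). Ttk (Mps1), the kinase that starts checkpoint signaling, was at 14.4, 13.96 and 14.3 in the WT libraries and 14.1, 15.7 and 15.4 in the Sdc1-/- libraries. The lowest Sdc1-/- library lay inside the WT range, and Ttk did not pass (log2 fold change 0.081 ± 0.049 SE, limma adjusted p = 0.19). It passed without Sdc1-/- replicate 1, with a sum of 1000000 per library and with the transcript length trend removed (limma adjusted p = 0.047, 0.0065 and 0.045). With the coding length trend removed its log2 fold change was 0.0022 (limma adjusted p = 0.97).

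The chromosomal passenger complex, which corrects faulty attachments and later guides cytokinesis, moved as a whole. All 4 subunits were higher, against 29.3% of all genes tested, by a median of 0.26 on the log2 scale. Incenp, the scaffold of the complex, rose the most, at 35.9, 34.9 and 35.5 in the WT libraries and 49.8, 47.8 and 48.1 in the Sdc1-/- libraries. That is 1.37-fold, far beyond the spread within a label (log2 fold change 0.44 ± 0.033 SE, limma adjusted p = 3.7e-05). Cdca8 (borealin), which targets the complex to centromeres, rose the least, at 77.4, 80.7 and 76.3 in the WT libraries and 90.002, 88.7 and 90.5 in the Sdc1-/- libraries. Its labels did not overlap either (log2 fold change 0.20 ± 0.032 SE, limma adjusted p = 0.0016). Aurkb (Aurora B), the enzyme of the complex, was at 62.7, 56.8 and 57.9 in the WT libraries and 70.4, 66.9 and 69.3 in the Sdc1-/- libraries, each Sdc1-/- library above each WT library (log2 fold change 0.22 ± 0.045 SE, limma adjusted p = 0.0049). Birc5 (survivin) went from 116 ± 1.75 to 143 ± 1.95 (SD, n = 3), a 1.23-fold difference with no overlap (limma adjusted p = 0.00012).

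In the spindle checkpoint 3 of 4 members were higher (75%) and 1 was lower (25%), against 29.3% and 31.3% of all genes tested. Bub1, the kinase that recruits checkpoint proteins to kinetochores, was at 17.1, 19.3 and 17.5 in the WT libraries and 24.4, 25.7 and 26.5 in the Sdc1-/- libraries. It had the largest rise of the group, 1.42-fold (log2 fold change 0.48 ± 0.056 SE, limma adjusted p = 0.00033). Bub1b (BubR1) and Mad2l1 (Mad2), both inhibitors of Cdc20, were higher by smaller steps. Bub1b was at 31.5, 30.7 and 30.3 in the WT libraries and 39.3, 39.6 and 38.01 in the Sdc1-/- libraries (log2 fold change 0.33 ± 0.034 SE, limma adjusted p = 0.00019). Mad2l1 was at 95.7, 90.8 and 87.7 in the WT libraries and 99.6, 102 and 106 in the Sdc1-/- libraries (log2 fold change 0.17 ± 0.042 SE, limma adjusted p = 0.012), without overlap. Its log2 fold change was 0.035 and did not pass once a trend with transcript length and GC content was removed. With coding length in place of transcript length it was 0.28 and passed (limma adjusted p = 0.0013). The transcript of Mad2l1 has 7557 bases, of which 615 are coding. Bub3 (ENSMUSG00000066979, chr7:131560222-131571895), which carries Bub1 and BubR1 to kinetochores, went the other way. It was at 115, 109 and 119 in the WT libraries and 107, 104 and 100.2 in the Sdc1-/- libraries, all Sdc1-/- libraries below all WT libraries (log2 fold change -0.14 ± 0.043 SE, limma adjusted p = 0.028), and its log2 fold change turned to 0.0095 with a sum of 1000000 per library. Bub3 did not pass without WT replicate 1, WT replicate 3, Sdc1-/- replicate 2 or Sdc1-/- replicate 3 (limma adjusted p = 0.070, 0.088, 0.073 and 0.087).

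Among the genes of the APC/C and of chromatid separation, the protease and its inhibitor moved apart. Espl1 (separase, ENSMUSG00000058290, chr15:102296266-102324357), which cuts cohesin at anaphase, was at 15.1, 10.1 and 12.8 in the WT libraries and 27.1, 29.3 and 25.9 in the Sdc1-/- libraries. The WT libraries spread widely, yet the lowest Sdc1-/- library stood far above the highest WT library, and the means differed 2.16-fold (log2 fold change 1.07 ± 0.13 SE, limma adjusted p = 0.00038). Pttg1 (securin, ENSMUSG00000020415, chr11:43420250-43426251), which holds separase inactive until the APC/C destroys it, was at 42.3, 45.8 and 44.01 in the WT libraries and 39.9, 39.9 and 39.5 in the Sdc1-/- libraries. It was lower in each Sdc1-/- library than in any WT library (log2 fold change -0.14 ± 0.038 SE, limma adjusted p = 0.014), but stood at 0.0024 on the log2 scale with a sum of 1000000 per library. Cdc20, the activator of the APC/C that the checkpoint blocks, was at 109, 109.7 and 110.4 in the WT libraries and 125, 127 and 119 in the Sdc1-/- libraries, without overlap (log2 fold change 0.17 ± 0.033 SE, limma adjusted p = 0.0034). Of its words 27.4% are shared with other genes, which makes its value uncertain. Ube2c, the ubiquitin-conjugating enzyme of the APC/C, went from 129.9 ± 1.03 to 173 ± 1.15 (SD, n = 3), 1.33-fold higher with no overlap (limma adjusted p = 1.8e-05), with 19.96% of its words shared.

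At the centromere and kinetochore 6 of 8 members were higher (75%, against 29.3% of all genes tested) and none was lower. The 3 with the largest rise were the very long ones, and they were also the least abundant of the 8. Cenpf (ENSMUSG00000026605, chr1:189640606-189688086), a large protein of the outer kinetochore, was at 5.93, 8.09 and 6.10 in the WT libraries and 18.4, 17.9 and 16.7 in the Sdc1-/- libraries. The gap between the labels was wider than the range within either, and the means differed 2.63-fold (log2 fold change 1.29 ± 0.11 SE, limma adjusted p = 6.4e-05). Cenpe (ENSMUSG00000045328, chr3:135212537-135273611), the kinesin that carries chromosomes to the spindle equator, went from 5.02 ± 0.12 to 13.3 ± 0.77 (SD, n = 3), 2.66-fold (limma adjusted p = 4.1e-06). Knl1, the kinetochore platform on which Bub1 and Bub3 assemble, was at 9.84, 13.03 and 10.1 in the WT libraries and 17.04, 19.2 and 18.8 in the Sdc1-/- libraries. Its labels did not overlap (log2 fold change 0.70 ± 0.10 SE, limma adjusted p = 0.001). Ndc80, which binds microtubules as part of the complex that carries its name, was at 19.4, 19.7 and 18.1 in the WT libraries and 23.2, 24.6 and 24.2 in the Sdc1-/- libraries, with no overlap (log2 fold change 0.32 ± 0.046 SE, limma adjusted p = 0.00085), and 17.2% of its words are shared with other genes. Of the other subunits of the Ndc80 complex, Nuf2 was 1.30-fold and Spc24 1.22-fold higher (limma adjusted p = 0.00075 and 0.019), whereas Spc25 was at 38.02, 42.2 and 42.5 in the WT libraries and 38.5, 42.9 and 42.8 in the Sdc1-/- libraries, overlapping between the labels (limma adjusted p = 0.82). Spc25 was called higher once the trend with transcript length or coding length was removed, by 0.18 and 0.16 on the log2 scale (limma adjusted p = 0.011 and 0.013). Spc24 did not pass without WT replicate 3 (limma adjusted p = 0.060). Cenpa, the histone H3 variant that marks the centromere and the most abundant member in the WT libraries, was at 189, 179 and 178 in the WT libraries and 175, 175 and 171 in the Sdc1-/- libraries. All Sdc1-/- libraries lay below the WT libraries, by little, and the difference did not pass (log2 fold change -0.066 ± 0.033 SE, limma adjusted p = 0.13), with the sign turned to 0.081 at a sum of 1000000 per library and to 0.11, called higher, with the coding length trend removed (limma adjusted p = 0.021).

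The spindle motors and microtubule proteins were higher in 6 of 7 cases (85.7%, against 29.3% of all genes tested). Kif15 (ENSMUSG00000036768, chr9:122951046-123018733), a kinesin that helps keep the spindle bipolar, had the largest change, at 14.8, 12.9 and 16.1 in the WT libraries and 31.1, 35.3 and 36.2 in the Sdc1-/- libraries. The labels lay far apart, and the means differed 2.34-fold (log2 fold change 1.18 ± 0.088 SE, limma adjusted p = 4.1e-05). Kif11 (Eg5), the main motor that pushes spindle poles apart, rose less, at 13.4, 14.4 and 13.6 in the WT libraries and 17.5, 18.5 and 18.4 in the Sdc1-/- libraries, without overlap (log2 fold change 0.38 ± 0.045 SE, limma adjusted p = 0.00036). Tpx2, which activates Aurora A on spindle microtubules, was at 45.1, 45.6 and 44.7 in the WT libraries and 51.5, 52.5 and 51.9 in the Sdc1-/- libraries. The libraries of each label lay close together, so that a rise of 1.15-fold stood clear of the spread (log2 fold change 0.20 ± 0.029 SE, limma adjusted p = 0.00091). Kif4, the chromokinesin, Hmmr, a spindle pole protein, and Kif2c, which takes microtubules apart at centromeres, were 1.46-fold, 1.40-fold and 1.25-fold higher, each without overlap. Nusap1, which bundles microtubules near chromosomes, was the exception, at 31.7, 35.01 and 31.95 in the WT libraries and 28.4, 31.001 and 30.8 in the Sdc1-/- libraries. Its Sdc1-/- libraries lay below the WT libraries without passing the test (log2 fold change -0.12 ± 0.054 SE, limma adjusted p = 0.085), and its sign turned to 0.020 at a sum of 1000000 per library.

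Central spindle and cytokinesis genes were divided: 3 of 6 were higher (50%, against 29.3% of all genes tested) and 3 did not pass, for a median log2 fold change of 0.081. With a sum of 1000000 per library 5 were higher, where 43.5% of all genes were. Prc1, which bundles the microtubules of the central spindle, was at 31.5, 31.5 and 29.7 in the WT libraries and 45.9, 43.9 and 46.1 in the Sdc1-/- libraries. It rose 1.47-fold, with a wide gap between the labels (log2 fold change 0.54 ± 0.039 SE, limma adjusted p = 3.7e-05). Anln (anillin), the scaffold of the contractile ring, rose to a like extent, from 15.9 ± 0.54 to 23.4 ± 0.86 (SD, n = 3; 1.47-fold, limma adjusted p = 7.0e-05). The 2 subunits of centralspindlin, Kif23 and Racgap1, gave unlike values. Kif23 was at 43.4, 39.9 and 42.5 in the WT libraries and 45.4, 48.1 and 46.8 in the Sdc1-/- libraries, higher without overlap (log2 fold change 0.15 ± 0.043 SE, limma adjusted p = 0.017), but its log2 fold change was 0.047 and did not pass once a trend with coding length was removed, nor did Kif23 pass without Sdc1-/- replicate 2 (limma adjusted p = 0.066). Racgap1 was at 44.3, 45.4 and 44.6 in the WT libraries and 44.2, 44.7 and 44.6 in the Sdc1-/- libraries, the labels overlapping (limma adjusted p = 0.82), and was called higher with the sum of 1000000 (limma adjusted p = 0.0057). Ect2, the exchange factor that switches on RhoA for the ring, was at 30.3, 27.96 and 24.98 in the WT libraries and 28.2, 25.7 and 22.6 in the Sdc1-/- libraries. The labels overlapped and the spread within each was wide (log2 fold change -0.12 ± 0.096 SE, limma adjusted p = 0.31), with the sign turned to 0.023 at a sum of 1000000 per library. Kif20a, a kinesin of the central spindle, overlapped too, with means of 32.9 ± 0.62 and 33.1 ± 0.65 (SD, n = 3). It was called higher with the sum of 1000000 and lower with the coding length trend removed, with log2 fold changes of 0.15 and -0.092 (limma adjusted p = 0.0051 and 0.034).

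Condensin I and topoisomerase II, which give mitotic chromosomes their shape, were higher in full, 6 of 6, against 29.3% of all genes tested. Their median log2 fold change of 0.71 was the largest among the role groups of more than 2 genes. Top2a, the enzyme that untangles sister DNA and the target of etoposide and doxorubicin, was at 101, 104 and 94.8 in the WT libraries and 187, 192 and 187 in the Sdc1-/- libraries. The means differed 1.89-fold (log2 fold change 0.91 ± 0.040 SE, limma adjusted p = 4.5e-06). Smc4, an ATPase of condensin, was at 39.2, 45.5 and 44.7 in the WT libraries and 59.1, 70.3 and 72.8 in the Sdc1-/- libraries. The spread within a label was wide for this gene, but the labels did not overlap (log2 fold change 0.63 ± 0.090 SE, limma adjusted p = 0.00085). Ncaph, the subunit that closes the condensin ring, rose the least, at 28.4, 29.8 and 28.3 in the WT libraries and 32.2, 31.7 and 31.9 in the Sdc1-/- libraries (log2 fold change 0.14 ± 0.035 SE, limma adjusted p = 0.011). Between these lay Ncapg and Ncapd2, the 2 subunits with HEAT repeats, at 1.78-fold and 1.75-fold (limma adjusted p = 0.00062 and 2.0e-06), and Smc2, the partner of Smc4, at 1.25-fold (limma adjusted p = 0.0021). Ncapd2 was the most even of these, between 54.7 and 55.1 in the WT libraries and between 95.3 and 97.6 in the Sdc1-/- libraries.

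Mki67 (ENSMUSG00000031004, chr7:135689784-135716361) encodes Ki-67, which coats mitotic chromosomes and is used to count proliferating cells. It was at 19.03, 20.1 and 19.1 in the WT libraries and 54.9, 57.4 and 56.1 in the Sdc1-/- libraries, and no other member differed as much: 2.89-fold of the means (log2 fold change 1.49 ± 0.038 SE, limma adjusted p = 8.0e-07). Foxm1, the transcription factor that binds MuvB at G2 and M phase promoters, was at 10.9, 10.8 and 11.2 in the WT libraries and 19.3, 18.1 and 17.8 in the Sdc1-/- libraries. The labels were 1.67-fold apart with no overlap (log2 fold change 0.69 ± 0.045 SE, limma adjusted p = 2.1e-05).

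**Figure D3:**
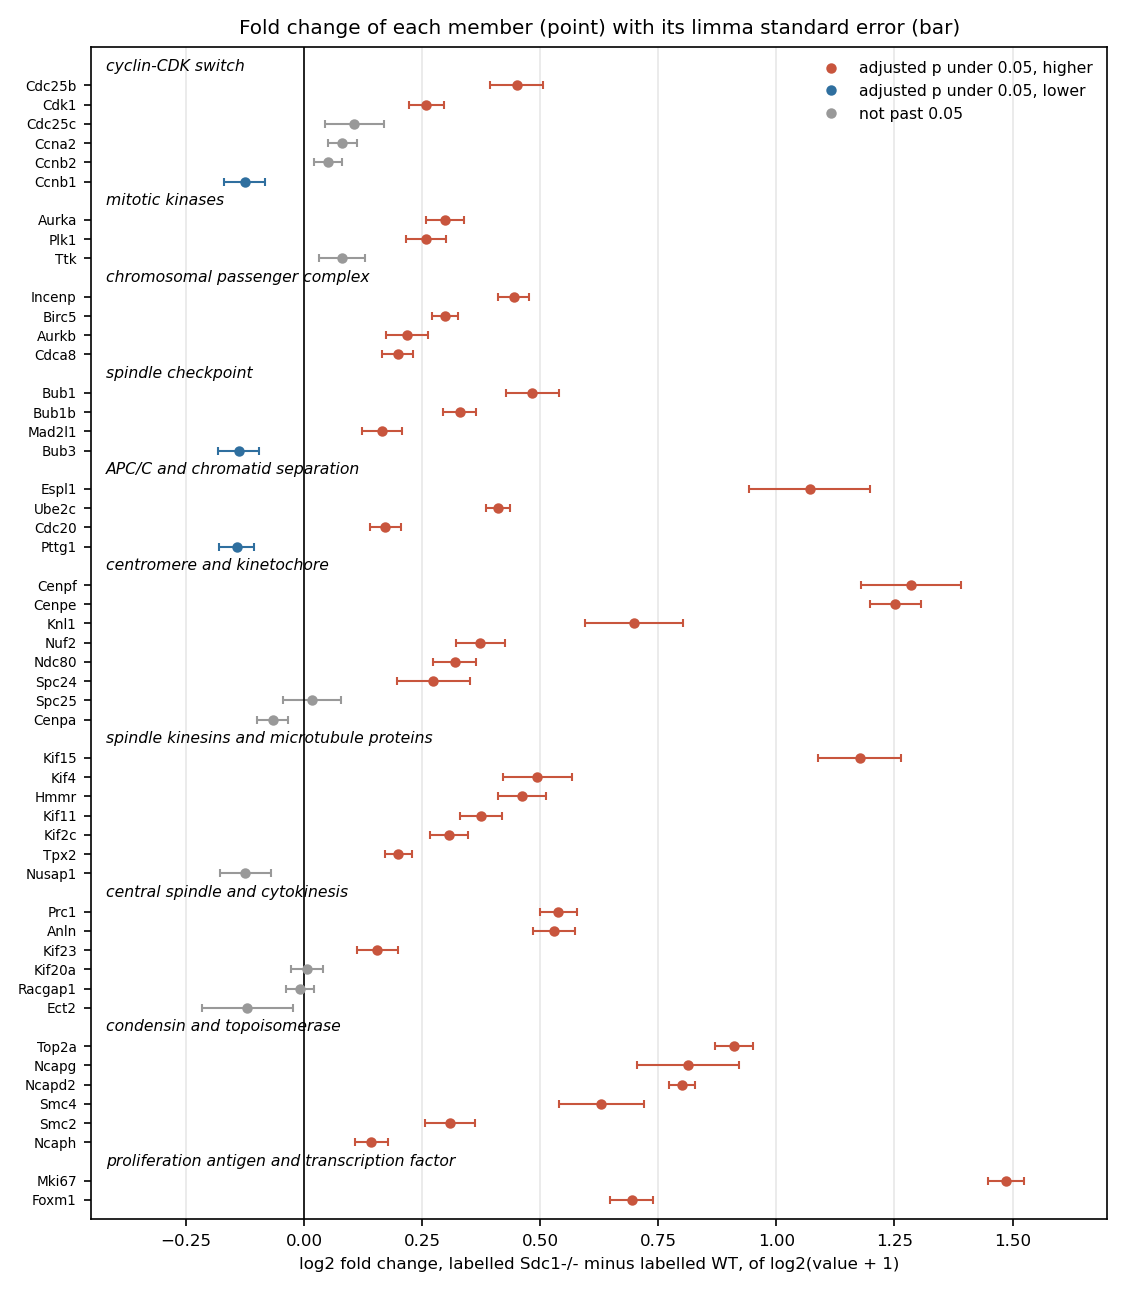
Log2 fold change of each member (point) with its limma standard error (bar), libraries labelled Sdc1-/- minus WT on the log2(value + 1) scale, ordered within each role; color marks the 37 members higher, the 3 lower and the 10 not past an adjusted p of 0.05. Mki67, Cenpf, Cenpe, Kif15 and Espl1 lie past 1, and all 4 chromosomal passenger and all 6 condensin and topoisomerase genes lie to the right of 0. The sign of the 3 lower members turns when each library is set to a sum of 1000000.

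The size of the change followed the length of the gene's product. Of the 24 members with a coding length under 2000 bases, 14 were higher and 3 lower, with a median log2 fold change of 0.18. Of the 18 with 2000 to under 4000 bases, 15 were higher and none lower, with a median of 0.35. All 3 with 4000 to under 6000 bases (Kif15, Ncapd2 and Top2a) and all 5 with 6000 or more (Espl1, Knl1, Cenpe, Cenpf and Mki67) were higher, with medians of 0.91 and 1.25. Across the 50 genes, which are not independent replicates and share the 6 libraries, Spearman's rho between coding length and log2 fold change was 0.69, and with transcript length 0.63.

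Length moved with the label in the other genes as well, by less. Outside the mitosis and replication lists, the median log2 fold change in the same classes of coding length was -0.060 (7881 genes), 0.10 (2228), 0.25 (399) and 0.42 (229), and 24.9%, 41.8%, 59.4% and 72.1% of the genes were higher. In these genes rho with coding length was 0.27. The slope of a library's log2 values, less the gene means, on transcript length was -0.050, -0.028 and -0.029 per doubling in the WT libraries and 0.025, 0.043 and 0.039 in the Sdc1-/- libraries, so that it differed in sign between the labels. In each class the median of the members was above that of the other genes.

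The counts were made again after a smooth trend with length and GC content had been removed from each library, a step chosen after the data were seen. With transcript length, 41 members were higher and none lower by limma (30.7% and 32.2% of all genes tested; 2 lower at an unadjusted p under 0.05), 36 of them among the 37, and the median log2 fold change was 0.32. With coding length, 40 were higher and 1, Kif20a, was lower (34.3% and 32.9% of all genes tested), 36 again among the 37, with a median of 0.30. The longest members came down: Mki67 from 1.49 to 1.29 and 1.03 (transcript length, then coding length), Cenpf from 1.29 to 1.10 and 0.83, Espl1 from 1.07 to 0.90 and 0.68, and Top2a from 0.91 to 0.86 and 0.65. Some shorter ones moved up: Ube2c from 0.41 to 0.55 and 0.55, and Birc5 from 0.30 to 0.44 and 0.46. Of the 3 members that were lower on the deposited values, none was called lower in either, and Pttg1 turned to 0.016 with transcript length.

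**Figure D4:**
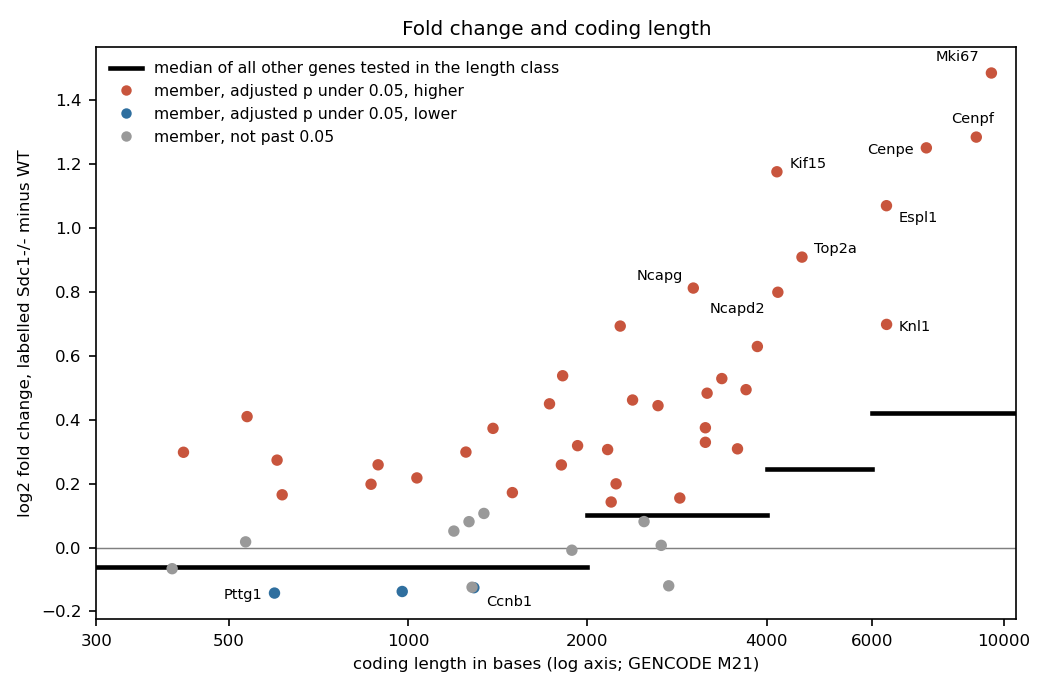
Log2 fold change of the 50 members (points, y axis, libraries labelled Sdc1-/- minus WT) against coding length in bases (x axis, log scale), with black bars for the median of the other genes tested in 4 length classes (-0.060, 0.10, 0.25 and 0.42). The points rise from left to right more steeply than the bars, up to Mki67 with 9531 coding bases.

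**Figure D5:**
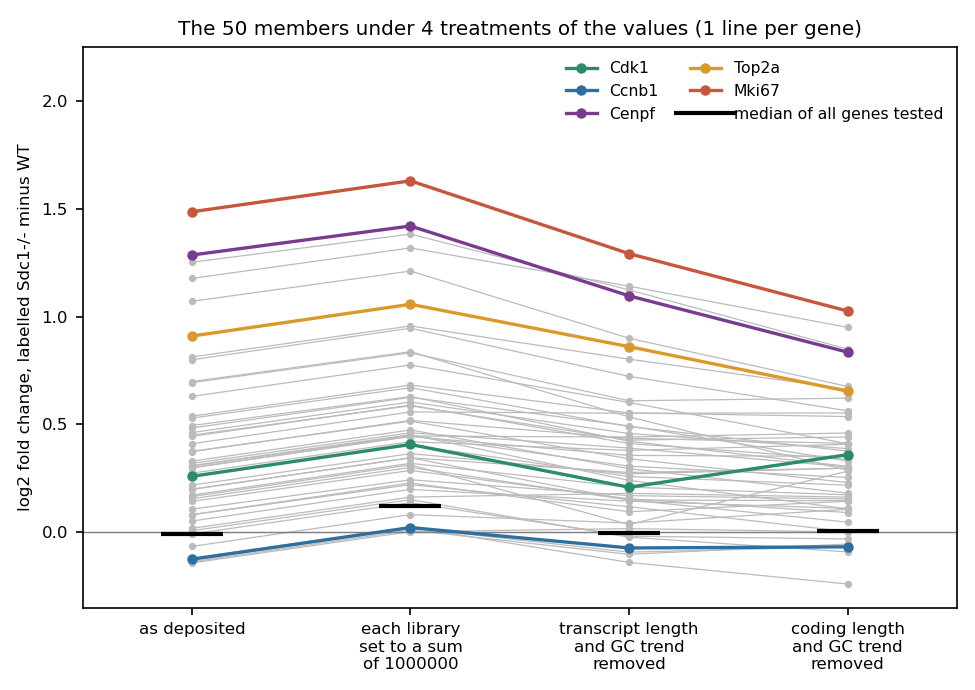
Log2 fold change of each of the 50 members (1 line per gene, 5 in color) on the deposited values, with each library set to a sum of 1000000, and after removal of a trend with transcript or coding length and GC content; black bars give the median of all genes tested. The sum of 1000000 lifts every line together with the bar, to 0.12, and the trend removals lower Mki67, Cenpf and Top2a while Ccnb1 stays near 0.

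The motif content of the promoters was set beside the change as well. The 33 members with a CHR core in a window had a median log2 fold change of 0.33, with 26 higher and 1 (Bub3) lower. The 8 without one had a median of 0.15, with 5 higher and 2 (Ccnb1 and Pttg1) lower. Among all genes tested 29.3% were called higher and 31.3% lower. For the CCAAT box the medians were 0.32 in the 30 members with it and 0.31 in the 11 without. These are descriptions of groups of unequal size, and no test was made of the difference. The members without a CHR core are also mostly short: all but Ncaph (2193) and Cenpe (7413) have a coding length under 2000 bases. The part of length in the difference was not tested.

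The remaining genes of mitosis, a list of 104 that holds the other kinetochore, cohesin, APC/C, kinesin and kinase genes, all passed the filter. Of these, 71 were higher (68.3%) and 4 lower (3.85%), against 29.3% and 31.3% of all genes tested, with a median log2 fold change of 0.23. Of the other kinesins, spindle and cytokinesis genes 22 of 25 were higher, with a median of 0.35, of the other cyclin-CDK regulators 10 of 11, with a median of 0.23, and the other subunits of the centromere and kinetochore gave 19 of 30. Of the APC/C subunits and mitotic exit genes 6 of 17 were higher (35.3%), near the 29.3% of all genes tested, and 2 were lower, with a median of 0.016. The subunits particular to condensin II, the form of condensin that works in the nucleus from prophase, gave 1 of 3 (33.3%), also near that share. Smc2 and Smc4, which condensin II also contains, were counted above with condensin I and were higher. The 3 largest rises were those of Pcnt (pericentrin), a scaffold of the centrosome, Kntc1 (Rod), a kinetochore subunit that loads dynein, and Kif20b, a kinesin of cytokinesis. Pcnt was at 9.17, 8.13 and 8.77 in the WT libraries and 23.5, 22.5 and 19.5 in the Sdc1-/- libraries (log2 fold change 1.23 ± 0.077 SE, limma adjusted p = 1.8e-05). Kntc1 and Kif20b rose by 1.16 and 0.99 on the log2 scale (limma adjusted p = 0.00012 and 4.5e-05), and none of the 3 overlapped between the labels. The coding lengths of Pcnt, Kntc1 and Kif20b are 8748, 6621 and 5322 bases. Their lowest log2 fold changes over 16 alternative fits were 0.76, 0.80 and 0.66. The 3 largest falls were those of Stag1, a subunit of cohesin, at 24.9, 26.5 and 23.1 in the WT libraries and 18.2, 21.1 and 19.4 in the Sdc1-/- libraries (log2 fold change -0.33 ± 0.068 SE, limma adjusted p = 0.0047), Anapc16, a subunit of the APC/C, with a log2 fold change of -0.29, and Mad2l1bp, which removes Mad2 from its targets, with -0.24 (limma adjusted p = 0.00057 and 0.0039). Mad2l1bp did not pass with a sum of 1000000 per library (limma adjusted p = 0.093).

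Of 15 genes of the MuvB, DREAM and NF-Y complexes, the regulators that bind the CHR and CCAAT elements, 5 were higher (33.3%) and 2 lower (13.3%), against 29.3% and 31.3% of all genes tested, with a median log2 fold change of 0.068. E2f5 and Rbl1 (p107), repressors in DREAM, and Nfya, the DNA-binding subunit of NF-Y, had the 3 largest rises. Nfya was at 12.6, 11.99 and 12.6 in the WT libraries and 18.4, 17.6 and 17.03 in the Sdc1-/- libraries, with no overlap (log2 fold change 0.48 ± 0.045 SE, limma adjusted p = 0.00012). E2f5, a gene of low level, was at 2.91, 3.57 and 3.66 in the WT libraries and 4.37, 5.35 and 6.20 in the Sdc1-/- libraries (log2 fold change 0.52 ± 0.12 SE, limma adjusted p = 0.0081), and Rbl1 at 16.3, 17.9 and 16.3 in the WT libraries and 19.5, 20.97 and 21.7 in the Sdc1-/- libraries (log2 fold change 0.29 ± 0.057 SE, limma adjusted p = 0.0041). The 2 called lower were Tfdp2, a partner of E2F factors, and Nfyb, another subunit of NF-Y. Their log2 fold changes were -0.25 and -0.18 (limma adjusted p = 0.01 and 0.027), and neither passed with a sum of 1000000 per library. Nfyb also did not pass without WT replicate 2, WT replicate 3, Sdc1-/- replicate 1 or Sdc1-/- replicate 2 (limma adjusted p = 0.053, 0.058, 0.067 and 0.085), nor with the coding length trend removed (0.26). Mybl2 (B-Myb), which joins MuvB before Foxm1 does, was at 32.6, 34.6 and 33.6 in the WT libraries and 34.99, 34.6 and 34.7 in the Sdc1-/- libraries and did not pass (log2 fold change 0.049 ± 0.034 SE, limma adjusted p = 0.25).

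Genes of DNA replication, which act in the phase before, gave counts close to those of the mitotic genes. Here 35 of 49 were higher (71.4%) and 2 lower (4.08%), against 29.3% and 31.3% of all genes tested, with a median log2 fold change of 0.22. Their summed value was 3751 to 3830 in the WT libraries and 4366 to 4418 in the Sdc1-/- libraries. The ranges lie apart in this list as well. The myeloid progenitor markers, in contrast, gave 2 higher (Kit and Myb, 25%) and 6 lower (75%) of 8.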

How the data were processed

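The authors quantified reads with kallisto and compared groups with sleuth (version 0.30.0, mouse build mm10, per the submitters' processing notes). The deposited values are a signal, TPM rescaled between libraries by the authors, for 36083 Ensembl genes. They sum to between 944973 and 1058263 per library, and read depth is not given, so no counting interval was computed. The design had assumed plain TPM, and the same test was kept. A second table, the authors' own comparison (p, q, effect, variance), was not used. Symbols (35454 IDs matched), lengths and GC content came from GENCODE M21.

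limma 3.58.1 (R 4.3.3, lmFit, eBayes with trend) was fitted to log2(value + 1) of the 12155 genes past the filter, with the label as its single term and Benjamini-Hochberg adjustment at 0.05. On simulated data for this comparison it recovered 193 of 200 genes changed 2-fold, with 12 false calls. The simulation changed only these 200 of 12155 genes, whereas 29.3% of all genes tested were called higher and 31.3% lower in the data. Smaller changes, or changes in so large a share of genes, were not simulated. Groups came from the labels. The members, lists and promoters shown were chosen with earlier results of these data known. Given in full were 21 members set by name, the largest and smallest log2 fold change of each role group, and the 3 largest called rises and falls of the other mitosis genes and regulators. Alternatives were other pseudocounts, minima, scalings and variance models, a replicate block, each library left out and, added after seeing the data, removal of length and GC trends (mgcv 1.9.3). Shared sequence was counted as 31-base words found in other genes' transcripts.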

Additional observations from a re-analysis of the deposited data

How the results depend on the processing

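The 37 higher members became 36 to 43 over 16 alternatives. The share of all genes called higher ran from 15.9% (no minimum mean) to 43.5% (sum of 1000000) over them. The share called lower ran from 16.6% (no minimum mean) to 34.4% (minimum mean of 5). The members' median log2 fold change (0.30) stayed positive in all, at 0.289 to 0.316 when any 1 library was left out. The median was 0.45 with each library set to a sum of 1000000, 0.32 by quantile normalization and 0.32 after removal of a trend with transcript length and GC content. The count of 3 lower members was not stable: it was 0 with the sum of 1000000 and with the transcript length trend removed, 1 without a minimum mean, by quantile normalization and with the coding length trend removed, 5 with the replicate block, and 1 to 3 without 1 library. It was 1 without WT replicate 1, without Sdc1-/- replicate 2 and without Sdc1-/- replicate 3. The other mitosis genes gave 58 to 68 higher and 4 to 5 lower without 1 library, where 25.6% to 27.7% of all genes were higher and 27.7% to 29.6% lower. They gave 2 lower with the sum of 1000000 and 7 with the coding length trend removed, where 19.6% and 32.9% of all genes were lower. With the sum of 1000000 the log2 fold change turned to 0.021 for Ccnb1, 0.0024 for Pttg1, 0.0095 for Bub3, 0.081 for Cenpa, 0.023 for Ect2 and 0.020 for Nusap1, the direct effect of sums that differ between the labels. Cenpa turned to 0.012 by quantile normalization, 0.042 with the transcript length trend removed and 0.11 with the coding length trend removed, and Pttg1 to 0.016 and 0.00096 with these 2 trends removed; the cause was not tested. The replicate block also called Ect2 and Nusap1 lower, kept the 37 higher members and gave 72 higher and 4 lower other mitosis genes. With it 30.1% of all genes were higher and 32.7% lower. Libraries of the same number deviated together at correlations of 0.15, -0.0083 and 0.018, and those of different numbers at -0.16 to 0.14. With 3 libraries per label these values cannot tell whether the numbers pair the libraries. The unknown depth limits the low genes most, and 3 libraries against 3 cannot go below an exact permutation p of 0.1 for a single gene.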
